A study of Caenorhabditis elegans with 10 samples.

Results

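Binding of UNC-62 was compared with binding of PQM-1 in whole day 1 adults of Caenorhabditis elegans, by the overlap of their deposited ChIP-seq peaks. ChIP-seq recovers DNA crosslinked to a tagged protein with an antibody, and a peak is an interval where the recovered reads exceed a control. All peaks on the 6 nuclear chromosomes were used: 2051 of 2053 for UNC-62, the other 2 being mitochondrial, and 6001 of 6001 for PQM-1. These 8052 intervals stand among 40986 in the 8 peak lists of the series, which covers 10 samples, and an overlap of 1 bp counted as shared.

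UNC-62 was precipitated with the anti-GFP antibody 3E6 from strain DLS396, genotype ceh-60(rhd116); gaIs285, grown at 20 °C for about 72 h on the bacterium OP50. PQM-1 was precipitated with the anti-FLAG antibody M2 from strain OP201, genotype unc-119(tm4063); wgIs201, with no growth temperature given in the sources used here. Their protocols differed in crosslinking: 2% formaldehyde for 30 min with Bioruptor shearing and a KAPA library kit for UNC-62, and 1% formaldehyde for 5 min with Covaris shearing and a ThruPLEX kit for PQM-1. With 1 library a side, factor, strain, antibody and protocol cannot be told apart, no p-value was computed, and the Wilson 95% intervals cover counting error only. gaIs285 and wgIs201 are transgenes, so each factor was read from a tagged transgenic copy. The series' stated aim concerns CEH-60 and UNC-62 isoform 7a, and the UNC-62 animals also carry the tagged ceh-60 allele that was precipitated for the CEH-60 lists. Samples were whole animals, and a peak list does not say in which tissue a site was bound.

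UNC-62 is the worm homolog of the MEIS homeodomain proteins, which bind DNA together with PBX proteins such as CEH-60. In the adult intestine this pair is known for activating the vitellogenin genes, which encode the yolk proteins passed to the oocytes. PQM-1 is a zinc finger protein known for acting in the intestine on growth, metabolic and stress genes, in opposition to the FOXO factor DAF-16. Series protocols also include CEH-60 lists, and a PQM-1 list from strain DLS422, which carries ceh-60(ok1485) with the same wgIs201.

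Most UNC-62 peaks lay on a PQM-1 peak, while most PQM-1 peaks had no UNC-62 peak. Of the 2051 UNC-62 peaks, 1726 overlapped PQM-1, or 84.2% (95% interval 82.5 to 85.7), and 325 did not. Of the 6001 PQM-1 peaks, 1640 overlapped UNC-62, or 27.3% (26.2 to 28.5), and 4361 did not. PQM-1 peaks covered 2.73% of the nuclear span and UNC-62 peaks 0.624%. The share of UNC-62 peaks with PQM-1 ran from 77.2% on chromosome I to 87.2% on chromosome II, and the share of PQM-1 peaks with UNC-62 from 23.2% on chromosome II to 31.0% on X.

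Overlaps were mostly deep rather than at the edges. The smallest was 2 bp, 18 of the 1747 overlapping pairs shared less than 50 bp, and the median pair shared 242 bp. Outside the threshold, 4 UNC-62 peaks without PQM-1 lay less than 100 bp from a PQM-1 peak, the nearest at 19 bp, and the median gap was 5049 bp. Among the PQM-1 peaks without UNC-62, 16 lay within 100 bp of an UNC-62 peak and the median gap was 7949 bp. Peak lengths differed, with a median of 255 bp for UNC-62 and 339 bp for PQM-1. Where the overlap had to reach 50% of both peaks, the shares were 36.4% of UNC-62 peaks and 12.4% of PQM-1 peaks. Against as many PQM-1 peaks of highest fold as UNC-62 has, 55.8% of UNC-62 peaks and 51.1% of those PQM-1 peaks overlapped.

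The summits, the positions of highest signal, nearly coincided at shared sites. The median distance from an UNC-62 summit to the nearest summit of an overlapping PQM-1 peak was 39 bp, with quartiles of 18 and 81 bp. Within 100 bp lay 1382 of the 1726, or 80.1% (78.1 to 81.9). A summit distance above 1000 bp occurred at 45 shared UNC-62 peaks, and the longest was 3576 bp. Only overlapping peaks were measured, which itself keeps summits close, and no expected distance was computed. The distance hardly moved with the strength of the PQM-1 peak: its median was 42 bp in the lowest and 37 bp in the highest PQM-1 fold quartile.

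**Figure D1:**
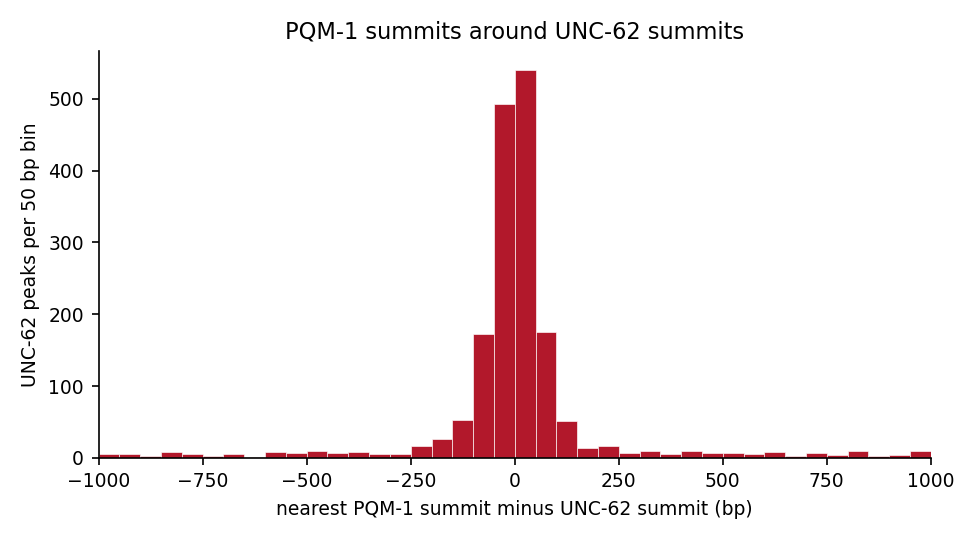
Position of the nearest PQM-1 summit relative to each UNC-62 summit, in bp, as the number of UNC-62 peaks per 50 bp bin. The bins just left and right of 0 hold 493 and 540 UNC-62 peaks, and 312 of the 2051 have no PQM-1 summit within 1000 bp and are not drawn.

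Overlap varied with the strength of the PQM-1 peak and hardly with that of the UNC-62 peak. Strength is the authors' fold enrichment of each peak, ranked only within its own list, since folds of different libraries are not comparable. By UNC-62 fold quartile, from lowest to highest, 84.4%, 84.2%, 84.2% and 83.8% of UNC-62 peaks overlapped PQM-1. By PQM-1 fold quartile, 9.59%, 14.1%, 28.1% and 57.6% of PQM-1 peaks overlapped UNC-62. In the highest PQM-1 decile the share was 67.8% (64.0 to 71.4) of 600 peaks, against 8.82% (6.81 to 11.4) of 601 in the lowest. Peak length moved with it: the median PQM-1 peak was 540.5 bp long where UNC-62 was present and 292 bp where it was not. Among PQM-1 peaks of 400 bp or less, matched to UNC-62 peaks of 400 bp or less, the lowest quartile had 6.49% overlap and the highest 24.6%. The part of length in the trend was not otherwise tested.

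**Figure D2:**
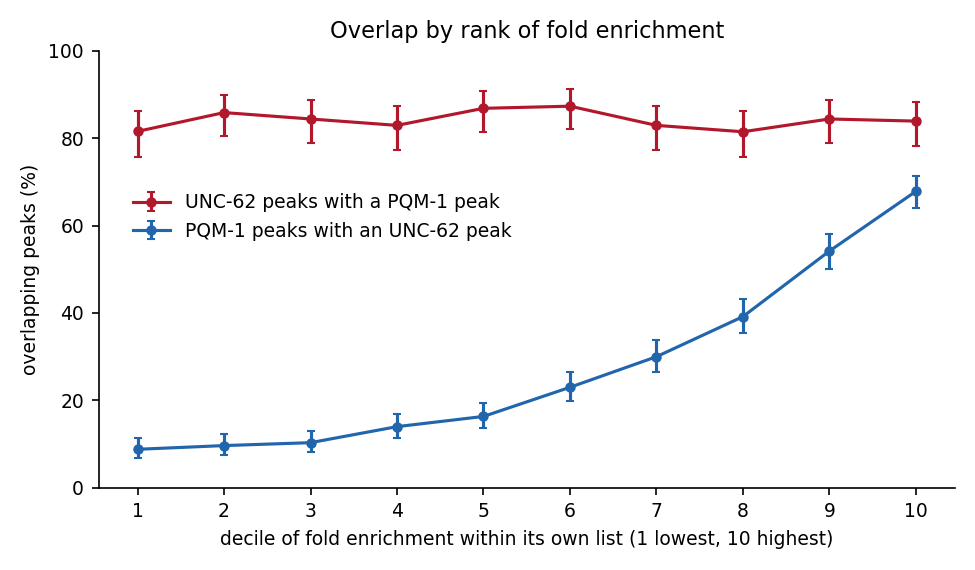
Percentage of overlapping peaks by decile of fold enrichment within each list, with Wilson 95% intervals that cover counting error only. UNC-62 deciles stay between 81.5% and 87.3%, while PQM-1 deciles go from 8.82% to 67.8%.

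At shared sites the strengths of both factors were nearly unrelated. Across the 1726 overlapping UNC-62 peaks, each set beside its overlapping PQM-1 peak of highest fold, Spearman's rho between the folds was 0.06. Points of this correlation are genomic sites from the same 2 libraries and are not independent samples. Beside it, the UNC-62 fold and the fold of CEH-60 from the same strain and protocol had a rho of 0.74 over 2025 sites. UNC-62 peaks with and without PQM-1 had median folds of 4.24 and 4.28, and median lengths of 256.5 and 250 bp. Of the 207 UNC-62 peaks with a rank of 205 or better, ties included, 42 (20.3%, 15.4 to 26.3) lay on a PQM-1 peak of rank 600 or better, against 435 of the 1844 lower ones (23.6%, 21.7 to 25.6).

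**Figure D3:**
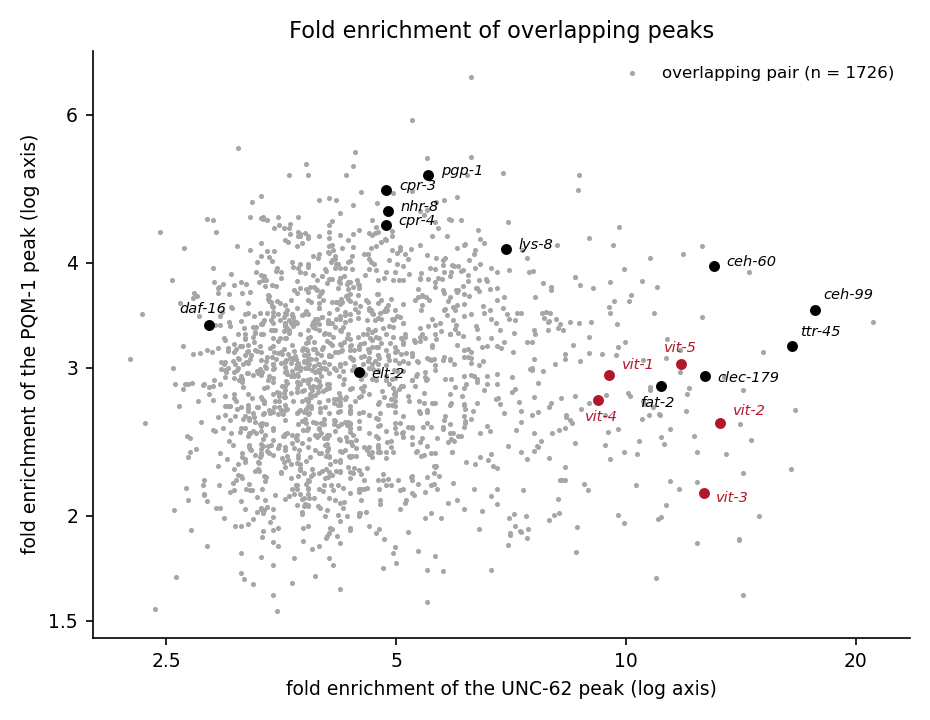
Fold enrichment of each shared UNC-62 peak (horizontal log axis) against its overlapping PQM-1 peak of highest fold (vertical log axis), 1726 points, with vitellogenin genes in red and other named genes in black. The vitellogenins lie far right and at mid height, with UNC-62 folds of 9.19 to 13.3 and PQM-1 folds of 2.13 to 3.03.

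The vitellogenin genes were among the strongest UNC-62 sites and had modest PQM-1 peaks. Genes count as bound if a peak summit falls near either gene end, no more than 1000 bp beyond it or 200 bp within it. UNC-62 bound 6 of 6 and PQM-1 5 of 6, beside 6.18% and 16.9% of all protein-coding genes. At vit-2 the UNC-62 peak (X:5100622-5101521) had a fold of 13.3 and rank 23 of 2051, and the PQM-1 peak (X:5100548-5101393) a fold of 2.58 and rank 2252 of 6001. At vit-3 the UNC-62 fold was 12.6, rank 26, and the PQM-1 fold 2.13, rank 4234. vit-5 had an UNC-62 fold of 11.8 at rank 39 and a PQM-1 fold of 3.03 at rank 1137. vit-1 and vit-4 ranked 97 and 103 for UNC-62, and 1324 and 1761 for PQM-1. Summits lay 9 to 20 bp apart at vit-1, vit-3, vit-4 and vit-5, and 288 bp apart at vit-2. Much sequence is shared among the copies vit-3 to vit-5, and the labels do not say how reads fitting more than 1 copy were treated.

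PQM-1 intervals also ran along the bodies of some vitellogenin genes. A PQM-1 interval of 6843 bp (IV:8260607-8267449), the longest of its list, covered 100% of vit-6 at a fold of 2.79. Its summit lay inside the gene, so vit-6 counts as bound by UNC-62 alone, although the UNC-62 peak of rank 36 at its end (IV:8260643-8262221, fold 12.01) overlaps this interval. On vit-2, 4 PQM-1 peaks with summits inside the gene covered 7.05%, 19.2%, 14.2% and 24.7% of its length. In the ceh-60(ok1485) strain DLS422, no PQM-1 summit lay in the window of any of the 6 vitellogenin genes. A DLS422 peak (X:3557516-3557860) came within 1000 bp of vit-4 with its edge and had its summit farther out, over an OP201 peak of fold 2.43 (X:3557563-3557958). That is 1 library with 5020 peaks, fewer than the 6001 of OP201, and whether ceh-60 accounts for the difference was not tested.

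Loci of the factors themselves gave shared and unusual peaks. At ceh-60, which encodes the PBX partner, the UNC-62 peak (X:6530564-6531056) had a fold of 13.04 at rank 24 and the PQM-1 peak (X:6530441-6531226) a fold of 3.96 at rank 186, with summits 4 bp apart. The UNC-62 peak of highest fold, 21.03, spanned 32132 bp over unc-62 (V:4480676-4512807) and held 7 PQM-1 peaks. This is the gene whose tagged copy the strain carries, and signal from the transgene and from the native locus cannot be told apart. At pqm-1 a PQM-1 interval spanned 6023 bp (II:11150722-11156744), with a fold of 2.06 and 2 UNC-62 peaks on it. No peak of either list lay within 20 kb of unc-119. With peaks within 20 kb of ceh-60, unc-62, pqm-1 and unc-119 left out, the shares were 84.1% of UNC-62 peaks and 27.2% of PQM-1 peaks.

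Other strong UNC-62 sites with PQM-1 belonged to genes of varied function. The highest with a bound gene (II:12518762-12519302, fold 17.7) lay between srh-70, of a chemoreceptor family, and the homeobox gene ceh-99, over a PQM-1 peak of fold 3.52 at rank 486. eef-1G, which encodes a translation elongation factor subunit, followed with an UNC-62 fold of 16.6 and a PQM-1 fold of 2.67 at rank 1963. ttr-45, of the transthyretin-like family, had an UNC-62 fold of 16.5 and a PQM-1 fold of 3.18 at rank 877. lron-7, str-253, C30G12.2, calu-1 and tmem-184 had UNC-62 folds of 15.1, 14.9, 14.2, 14.2 and 13.4. Their PQM-1 ranks ran from 944 at lron-7 to 4935 at str-253, so they were spread over most of the PQM-1 list.

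UNC-62 peaks without PQM-1 reached nearly as high. B0261.6 (I:5255080-5255766) had an UNC-62 fold of 14.1 at rank 15, T16G12.9 13.96 at rank 19, and pak-1, which encodes a p21-activated kinase, 13.5 at rank 21. W08E3.4 followed with 12.2, and the site between C53D5.5 and imb-3, an importin beta gene, with 9.15. eat-17, which encodes a RabGAP acting in the pharynx, had 7.92, and lars-1, a leucyl-tRNA synthetase gene, 7.29. Y43F8C.17, F42A10.9 and K08D8.11 had 7.54, 7.48 and 6.77. These are the 10 unshared UNC-62 sites of highest fold with a bound gene. All 10 carried a CEH-60 peak of DLS396 and none carried a PQM-1 peak of DLS422. Among all 83 unshared UNC-62 peaks of the highest fold quartile, the shares were 98.8% and 0%. Some unshared sites had no gene end nearby: UNC-62 peaks of folds 15.5, 15.05, 12.5 and 11.05 lay inside ugt-30, let-607, nhr-76 and npr-13. Of the UNC-62 peaks without PQM-1, 41.2% (36.0 to 46.7) had a summit at a gene end by the rule above, against 49.5% (47.1 to 51.8) of those with PQM-1.

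The 10 shared PQM-1 sites of highest fold with a bound gene held UNC-62 peaks of ranks from 118 to 1892 of 2051. At srz-62, of a chemoreceptor family, the PQM-1 peak of rank 1 (IV:3899578-3901041, fold 6.65) held an UNC-62 peak of fold 6.26 at rank 333. oatr-1, which encodes ornithine aminotransferase, had a PQM-1 fold of 5.47 at rank 3 and an UNC-62 fold of 3.10 at rank 1892. The site of spsp-1 and scav-6, the latter of the scavenger receptor family, had a PQM-1 fold of 5.42 and an UNC-62 rank of 927. pgp-1, a P-glycoprotein transporter gene, had a PQM-1 fold of 5.09 at rank 12 and an UNC-62 fold of 5.51 at rank 504. mrp-5, an ABC transporter gene, had 4.86 and an UNC-62 rank of 580. B0507.3 and Y55D9A.2 ranked high in both lists, at PQM-1 ranks 13 and 21 and with UNC-62 folds of 8.67 and 8.64.

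PQM-1 peaks without UNC-62 reached rank 15 among those with a bound gene. The site between fbxc-33 and fbxc-29, of the F-box family, had a PQM-1 fold of 5.06 at rank 15 (II:914772-916093). C52E2.2 had 5.02, pals-17 4.99, the site of F33H12.7 and sri-39 4.95, Y58A7A.1 4.92 and zig-13 4.81. Ranks then stepped down to 77 at the site of cld-1 and dod-21, the latter named as downstream of DAF-16, and 79 at that of ugt-62 and mrps-34. fbxa-50 and the site of C18H9.6 and rpy-1 followed at ranks 84 and 93. All 10 of these sites were also PQM-1 peaks in DLS422, and all 10 had a CEH-60 peak in DLS396. That is near the shares of all 636 PQM-1 peaks without UNC-62 in the highest fold quartile, 97.6% and 98.0%.

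Counted over genes, the relation was the same as over peaks. Of 19971 protein-coding genes, UNC-62 bound 1235 (6.18%), PQM-1 3376 (16.9%) and both 1070 (5.36%). PQM-1 bound 86.6% (84.6 to 88.4) of the UNC-62-bound genes, leaving 165, and UNC-62 bound 31.7% (30.1 to 33.3) of the PQM-1-bound genes, leaving 2306. Overlapping peaks gave 1031 of the 1070 shared genes, and separate peaks at the same gene the other 39. With a window of 2000 bp outside the gene, 1656 genes were bound by both. Neighbouring genes can share a peak, and the gene table gives no strand, so a gene's start and end were not distinguished. A gene bound by UNC-62 alone or PQM-1 alone by this rule can still carry overlapping peaks, as vit-6 does.

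Intestinal genes were often bound by both, beside 5.36% of all genes. Among 14 intestine markers 5 were bound by both, none by UNC-62 alone and 4 by PQM-1 alone. The protease gene cpr-6 had UNC-62 rank 455 and PQM-1 rank 260. pept-1, the intestinal peptide transporter, had ranks 544 and 445, act-5, the actin of the microvilli, 1009 and 499, and elt-2, which encodes an intestinal GATA factor, 891 and 1294. In the transport and brush border list 8 of 18 were bound by both and 3 by PQM-1 alone. Of 8 cathepsin B-like protease genes 4 were bound by both and 3 by PQM-1 alone, with PQM-1 ranks of 20 at cpr-3, 53 at cpr-4 and 72 at cpr-9.

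**Figure D4:**
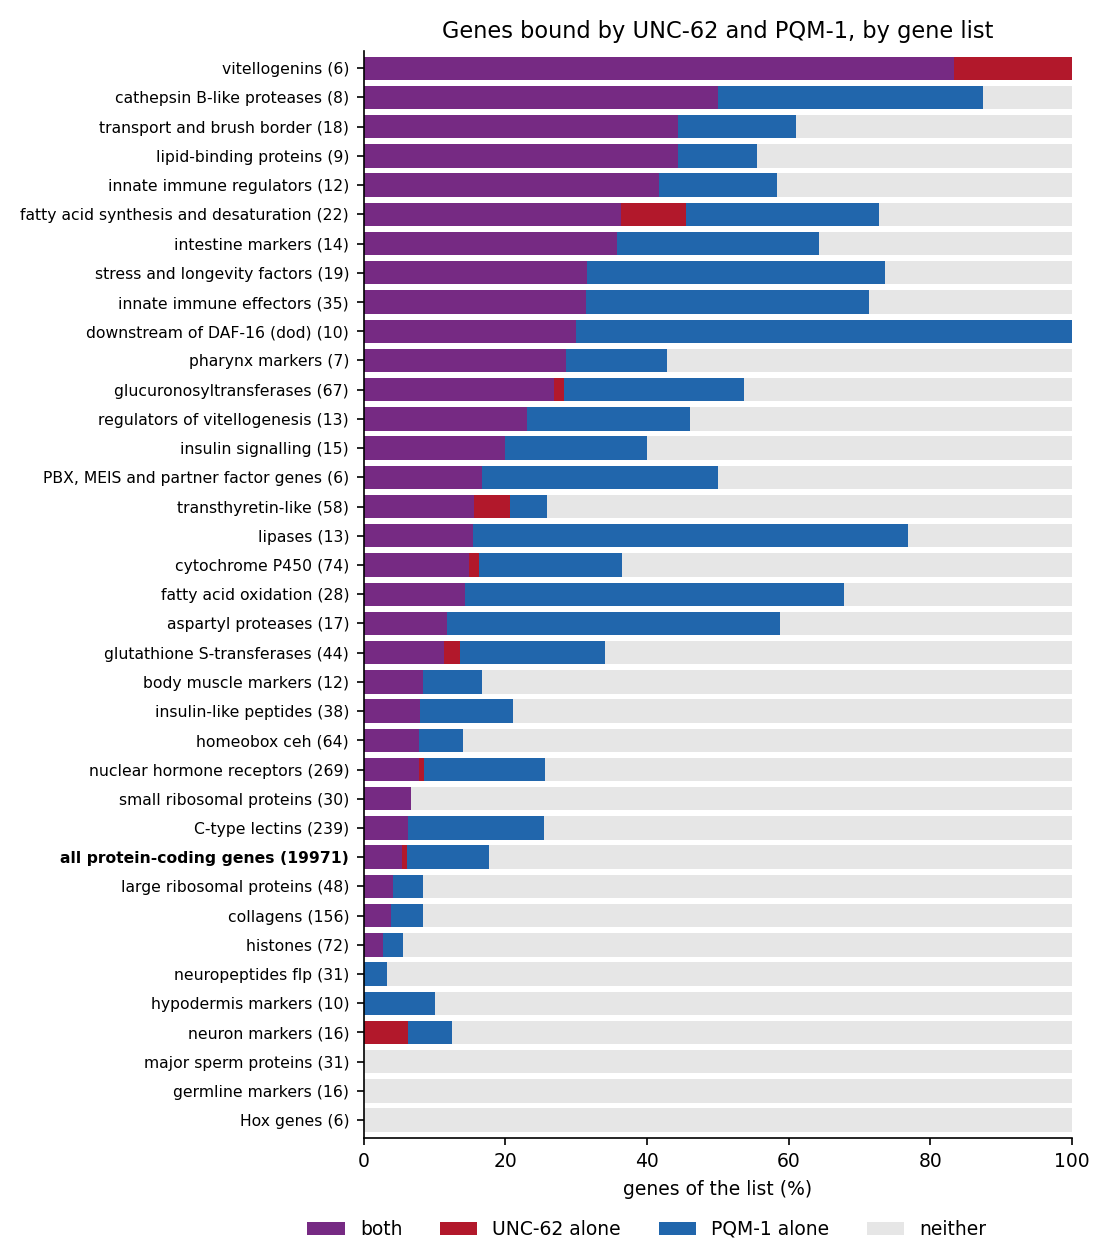
Percentage of the genes of each list bound by both factors, by UNC-62 alone, by PQM-1 alone or by neither, with the number of genes in brackets and all 19971 protein-coding genes in bold. Lists are ordered by the share bound by both, from 5 of 6 vitellogenins down to 0 of 6 Hox genes.

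Markers of other tissues were bound to differing extents, beside 5.36% of all genes bound by both and 16.9% by PQM-1. Both factors bound 2 of 7 pharynx markers, pha-2 and pha-4 (28.6%), with PQM-1 at 42.9%. Among 12 body muscle markers both bound 1 (8.33%), unc-60, an actin depolymerising factor gene, with PQM-1 at 16.7%. None of 16 neuron markers, 10 hypodermis markers, 16 germline markers or 6 Hox genes was bound by both. mec-3, the LIM homeodomain gene of touch neurons, had an UNC-62 fold of 8.99 at rank 107. No PQM-1 summit of OP201 lay in its window, but the UNC-62 peak overlapped an OP201 peak of fold 3.40. These lists describe sites and not expression, which was not measured in these files.

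Lipid genes were bound in different proportions by list. Over all 19971 genes both factors bound 5.36%, UNC-62 alone 165 genes and PQM-1 alone 2306. For fatty acid synthesis and desaturation, 8 of 22 genes were bound by both, 2 by UNC-62 alone and 6 by PQM-1 alone. fat-2, a desaturase gene, had an UNC-62 fold of 11.1 at rank 49 and a PQM-1 rank of 1506. elo-5, an elongase gene, had ranks 855 and 584, and fat-1, the omega-3 desaturase gene, 1073 and 3950. fat-7, a stearoyl-CoA desaturase gene, and elo-2 had PQM-1 alone, at ranks 451 and 625. By the gene-end rule acs-1 and elo-3 had UNC-62 alone, at ranks 584 and 1091. The elo-3 UNC-62 peak (IV:7237451-7237733) still lay inside an OP201 PQM-1 peak of rank 568 (IV:7237164-7238520). In the stretch of chromosome V that holds acs-1, an UNC-62 peak of the same fold, 5.24, overlapped an OP201 peak of fold 3.12. The acs-1 UNC-62 peak may therefore also overlap an OP201 PQM-1 peak. In DLS422 both acs-1 and elo-3 had a PQM-1 peak, with folds of 4.26 and 2.61. For fatty acid oxidation, 4 of 28 were bound by both and 15 by PQM-1 alone. kat-1, a thiolase gene, had an UNC-62 rank of 351 and a PQM-1 rank of 2260, and dhs-28 and hacd-1 had PQM-1 alone, at ranks 974 and 803. For lipases 2 of 13 were bound by both and 8 by PQM-1 alone, and for lipid-binding proteins 4 of 9 and 1.

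UNC-62 accompanied PQM-1 at different rates in these lists. Beside the 31.7% over all PQM-1-bound genes, UNC-62 was present at 21.1% of 19 PQM-1-bound oxidation genes, 20.0% of 10 lipase genes and 57.1% of 14 synthesis genes. The corresponding shares were 72.7% of 11 transport genes and 4 of 5 lipid-binding genes. With so few genes in each list these shares are descriptions, and no difference between lists was tested.

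PQM-1 bound 71.4% of 35 innate immune effectors, 58.3% of 12 immune regulators and 73.7% of 19 stress and longevity factors, beside 16.9% of all genes. The shares bound by both were 31.4%, 41.7% and 31.6%, beside 5.36%. Of the 35 innate immune effectors 11 were bound by both and 14 by PQM-1 alone. lys-8, a lysozyme gene, had an UNC-62 rank of 244 and a PQM-1 rank of 123, and irg-2 ranks of 374 and 211. lys-2 and lys-3 shared 1 PQM-1 peak of rank 215 and had no UNC-62 summit. Among 12 immune regulators 5 were bound by both, pmk-1, the p38 kinase gene, with ranks 1482 and 595 among them. Of 19 stress and longevity factors 6 were bound by both and 8 by PQM-1 alone. daf-16 had an UNC-62 peak low in its list (fold 2.84, rank 1996) under a PQM-1 peak higher in its own list (3.37, rank 644). nhr-49, a nuclear receptor gene of fat metabolism, had ranks of 763 and 5279. All 10 dod genes, named as downstream of DAF-16, had PQM-1, 3 of them with UNC-62.

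Both factors bound 23.1% of 13 vitellogenesis regulators, beside 5.36% of all genes. These 3 were mab-3, which represses yolk genes in males, at UNC-62 rank 69 and PQM-1 rank 2200, and elt-2 and daf-16, described above. sma-3 and sgk-1 had PQM-1 alone. Of 15 insulin signalling genes 3 were bound by both, including ins-7, an insulin-like peptide gene, at ranks 141 and 636. Of all 38 insulin-like peptide genes 3 (7.89%, near the share of all genes) were bound by both and 5 by PQM-1 alone. In the short list of PBX, MEIS and partner factor genes, ceh-60 was bound by both, unc-62 and pqm-1 had PQM-1 summits alone by the gene-end rule, and ceh-20, ceh-40 and psa-3 had neither. Homeobox genes of the ceh series gave 5 bound by both (7.81%, likewise near it) and 4 with PQM-1 alone among 64.

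Large gene families differed in how far they stood from the 5.36% of all genes bound by both and the 16.9% bound by PQM-1. Glucuronosyltransferases were at 26.9% and 52.2%, cytochrome P450 genes at 14.9% and 35.1% and glutathione S-transferases at 11.4% and 31.8%. Nuclear hormone receptors, at 7.81% and 24.9%, and C-type lectins, at 6.28% and 25.5%, were near the former share. Of the 67 glucuronosyltransferase genes 18 were bound by both, 1 by UNC-62 alone and 17 by PQM-1 alone. For 74 cytochrome P450 genes the counts were 11, 1 and 15, with cyp-35A3 at UNC-62 rank 93 and PQM-1 rank 519. For 44 glutathione S-transferase genes they were 5, 1 and 9, and for 269 nuclear hormone receptor genes 21, 2 and 46. nhr-8, of the last family, had UNC-62 rank 707 and PQM-1 rank 36, and nhr-35 ranks of 307 and 63. C-type lectin genes gave 15, 0 and 46 of 239, with clec-179 at UNC-62 rank 25 and PQM-1 rank 1356. Of 58 transthyretin-like genes 9 were bound by both, 3 by UNC-62 alone and 3 by PQM-1 alone, and of 17 aspartyl protease genes 2, 0 and 8. Collagens (6 of 156 bound by both, 3.85%) and large (2 of 48, 4.17%) and small (2 of 30, 6.67%) ribosomal protein genes were also near that 5.36%. Both factors bound 2 of 72 histone genes (2.78%) and 0 of 31 major sperm protein genes. Of 31 flp neuropeptide genes 1, flp-6, had PQM-1 and none had UNC-62.

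Shared and unshared UNC-62 peaks differed most in the further lists made with the PQM-1 protocol. The PQM-1 list of DLS422 held 81.8% (79.9 to 83.6) of the UNC-62 peaks shared with OP201 and 13 of the 325 unshared ones (95% interval 2.35 to 6.72%). By UNC-62 fold quartile, from lowest to highest, DLS422 held 81.8%, 84.3%, 84.2% and 77.0% of the shared peaks. Over all UNC-62 peaks of the highest decile, 58.0% (51.2 to 64.6) had a DLS422 peak and 83.9% (78.3 to 88.3) an OP201 peak, and in the lowest decile 65.0% and 81.6%. DLS422 differs from OP201 in ceh-60(ok1485) and in the absence of unc-119(tm4063) from its label. For UNC-62 against DLS422 in place of OP201 the overlap was 69.5% of UNC-62 peaks and 27.5% of PQM-1 peaks.

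CEH-60 peaks accompanied almost all shared sites. In DLS396, the strain and protocol of the UNC-62 list, CEH-60 overlapped 1726 of 1726 UNC-62 peaks with PQM-1 and 299 of 325 without (88.5 to 94.5%). The 26 UNC-62 peaks without that CEH-60 list included 0 with PQM-1. CEH-60 replicate 2 of DLS395, made with the PQM-1 protocol, overlapped 88.4% (86.8 to 89.8) of the shared and 45.8% (40.5 to 51.3) of the unshared UNC-62 peaks. Read the other way, PQM-1 lay at 91.1% (89.6 to 92.4) of 1674 UNC-62 peaks with replicate 2 and at 53.3% (48.3 to 58.3) of 377 without it. In the highest UNC-62 quartile these were 424 of 477 and 6 of 36.

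PQM-1 peaks with and without UNC-62 also differed in the further lists, but most in the mIgG1 list and least in the DLS422 list. CEH-60 of DLS396 overlapped 1640 of 1640 PQM-1 peaks with UNC-62 and 74.5% (73.2 to 75.8) of the 4361 without. CEH-60 replicate 1 of DLS395 overlapped 99.9% and 75.2%, and the mIgG1 list 96.1% and 25.3%. CEH-60 replicate 2 overlapped 88.2% (86.6 to 89.7) and 28.7% (27.3 to 30.0). Within PQM-1 fold quartiles the difference remained: 68.1% against 11.3% in the lowest and 95.4% against 70.8% in the highest. The DLS422 list, in contrast, held 81.2% of PQM-1 peaks with UNC-62 and 62.9% of those without, but within fold quartiles the shares were close, 37.5% and 40.5% in the lowest and 96.8% and 97.6% in the highest. In pqm-1(ok485) animals (DLS435), CEH-60 overlapped 69.5% of PQM-1 peaks with UNC-62 and 12.3% of those without. The same list overlapped 69.6% of UNC-62 peaks with PQM-1 and 23.4% of those without. The mIgG1 list overlapped 95.5% of UNC-62 peaks with PQM-1 and 90.8% of those without, so nearly the whole UNC-62 list recurred in it. In the highest UNC-62 fold quartile it overlapped 430 of 430 and 83 of 83. Its label gives mIgG1 in the place where the labels of the other CEH-60 lists give an antibody. Whether its peaks reflect CEH-60 was not tested.

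**Figure D5:**
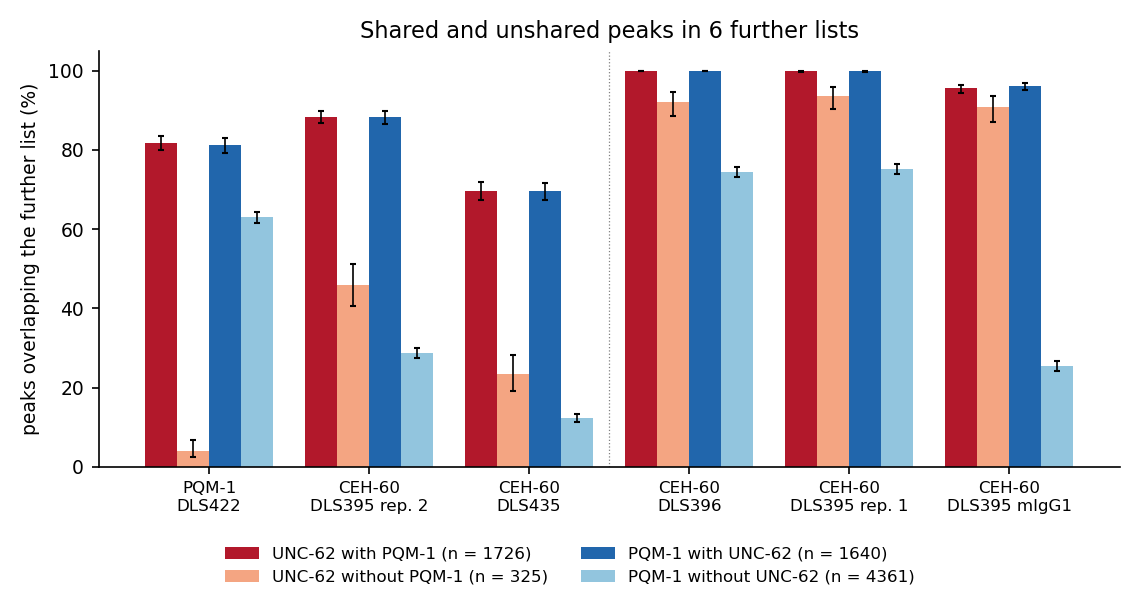
Percentage of shared and unshared UNC-62 and PQM-1 peaks that overlap each of 6 further lists, with Wilson 95% intervals that cover counting error only; lists left of the dotted line were made with the PQM-1 protocol and those right of it with the UNC-62 protocol. Of the 325 UNC-62 peaks without PQM-1, 13 overlap PQM-1 of DLS422 and 299 overlap CEH-60 of DLS396.

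A reading of such an overlap under both crosslinking protocols exists for CEH-60, the factor made both ways from 1 strain, DLS395, and 1 antibody. Of the 2051 CEH-60 peaks of highest fold, 80.7% (79.0 to 82.4) overlapped PQM-1 with the 30 min crosslink of replicate 1 and 86.6% (85.1 to 88.0) with the 5 min crosslink of replicate 2. The UNC-62 value of 84.2% lay between them. It lay above the other lists with a 30 min crosslink at the same number of peaks. These were CEH-60 of DLS396, at 79.2%, and the mIgG1 list of DLS395, at 63.9%. Over whole lists the CEH-60 shares were 52.1% of 9008 peaks and 83.9% of 3430, a change of list length as well as protocol. In the other direction, UNC-62 overlapped 71.1% of the 2051 CEH-60 peaks of replicate 1 and 62.3% of those of replicate 2. Each is 1 library, and protocol, replicate and list depth change together.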

How the data were processed

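Peak lists of 8 ChIP-seq samples of Caenorhabditis elegans were used as deposited, and the members compared and the gene lists were chosen with earlier results of these data known. The tools named in the submitters' processing notes are MACS2, Bowtie2, deepTools and SAMtools, without versions. Genome build, control library and read depth were not given in the sources used here. Every deposited list belongs to 1 sample, and gives for each peak an interval, a score, a fold enrichment, −log10 p and −log10 q values and a summit offset made by the authors. The deposited score was not used, and the deposited ratio (fold over control) and −log10 q served only to rank or filter peaks within a list.

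Mitochondrial peaks were left out. Overlap (1 bp or more), summit distances and Wilson 95% intervals were computed in Python 3.11.15 with numpy 2.4.6 and pandas 2.3.3, and the overlap routine was tested on simulated data and against bedtools 2.31.1. Genes and their ends come from a RefSeq table of assembly WBcel235, used for names and neighbourhood. Whether it shares the frame of the lists was checked by shifting summits: 59.4% of summits lay outside genes unshifted, and 51.5% and 51.0% at 250 bp to either side. All 1533 gene list members were found. Genes named are those at the 10 peaks of highest fold in each of 4 classes with a bound gene (peaks passed over for lack of one numbered 9, 32, 5 and 10), ceh-60, unc-62, pqm-1 and the vitellogenins, and up to 4 genes bound by both and 2 bound by 1 alone per list. A motif search was planned and not run, as no sequence was used here. The peaks inside genes that are named for UNC-62 alone are the highest of those passed over. Alternatives were tried for the overlap rule, peak set, gene window and PQM-1 list.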

Additional observations from a re-analysis of the deposited data

How the results depend on the processing

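The share of UNC-62 peaks with PQM-1 was 36.4% with an overlap of 50% of both peaks, 74.3% with summits within 200 bp, 81.7% and 69.3% at −log10 q of 5 and 10 or more, 55.8% against the PQM-1 peaks of highest fold, 78.2% without peaks longer than 2000 bp and 69.5% with DLS422. The share of PQM-1 peaks with UNC-62 was 12.4%, 25.4%, 29.6% (q of 5) and 51.1% (highest fold) under the corresponding settings. The number of genes bound by both went from 1070 to 1656 with a 2000 bp window. Settings chosen after seeing the data moved the fold quartiles: with summits within 200 bp the lowest and highest UNC-62 quartiles had 70.4% and 76.0%, and the highest PQM-1 quartile 54.1%. Ranked by −log10 q, the lowest and highest PQM-1 quartiles had 6.53% and 60.7%. For peaks of 400 bp or less the UNC-62 quartiles had 24.2% and 23.6% and the PQM-1 quartiles 6.49% and 24.6%. With an overlap of 50% of both peaks, 37.7% of UNC-62 peaks with CEH-60 replicate 2 and 30.5% of those without had PQM-1. Whole CEH-60 lists gave 52.1% and 83.9%. In all, 25 of these values moved beyond the main interval or 1.5 times the main count and 16 did not; the cause was not tested. The count bound by both stayed within 1.5 times in 22 of 36 gene lists with a 500 bp window, 28 with 2000 bp and 24 against the PQM-1 peaks of highest fold, where vitellogenins went from 5 to 3. No paired analysis was possible because each side is 1 library and the results come from no test. Read depth is unknown, so a missing peak is a peak not called and not an absence of binding.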

Other observations

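Sites high in both lists made up 20.3% of the 207 UNC-62 peaks with a rank of 205 or better. Among the 1844 lower UNC-62 peaks, 23.6% likewise lay on a PQM-1 peak of rank 600 or better. Of the 42 UNC-62 peaks with a rank of 205 or better that lay on a PQM-1 peak of rank 600 or better, 22 had a bound gene, 42 overlapped CEH-60 replicate 2 and 41 had their PQM-1 peak in DLS422. Their median summit distance was 40 bp. These counts are near those of other strong shared peaks. CEH-60 replicate 2 overlapped 98.6% of shared UNC-62 peaks in the highest UNC-62 fold quartile. DLS422 held 96.8% of shared PQM-1 peaks in the highest PQM-1 fold quartile, and 49.5% of all shared UNC-62 peaks had a summit at a gene end. Genes at the 42 sites, named after their values were seen, include ceh-60, unc-49, which encodes a GABA receptor subunit, and abhd-3.2. They also include sid-3, a kinase gene linked to the import of double-stranded RNA. unc-49 had UNC-62 rank 84 and PQM-1 rank 59, with summits 825 bp apart, and sid-3 ranks 96 and 463, with summits 62 bp apart.

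The X chromosome held 28.3% (26.3 to 30.5) of UNC-62 peaks with PQM-1 and 22.5% (18.3 to 27.3) of those without. For PQM-1 peaks the shares were 28.7% (26.5 to 30.9) with UNC-62 and 24.0% (22.7 to 25.3) without. Summits outside genes made up 62.8% of UNC-62 peaks with PQM-1 and 195 of the 325 without, and 62.4% of PQM-1 peaks with UNC-62 and 56.9% of those without. These are descriptions of 1 library a side.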
